A study of Mus musculus with 10 samples.

Results

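The RNA of projection neurons sorted from the cortex of normal mouse pups on postnatal day 3 is described here, as measured in the 5 control libraries of a series of 10 libraries. The 5 are the libraries whose column names contain CTRL in the deposited count table, and no comparison between genotypes was made. Their genotype was NexCre/+;Cdk7+/+;R26EYFP/+: all of them carried NexCre (Cre recombinase under control of Neurod6), a yellow fluorescent reporter switched on by Cre (R26EYFP) and wild-type Cdk7. Cortices were microdissected and dissociated, cells were sorted by EYFP fluorescence, and polyA RNA was sequenced with a kit that keeps the strand. The labels give no sex and do not say how many pups went into a library, so the spread between libraries is the spread between these samples. NexCre acts in postmitotic glutamatergic neurons of cortex and hippocampus, and every pup carried 1 Neurod6 allele with the driver; the part of the Neurod6 counts that came from that allele was not tested.

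Projection neurons of the cortex are glutamatergic cells that send axons to other cortical areas, to the thalamus and to the brainstem and spinal cord. They arise from radial glia and from intermediate progenitors that express Eomes. Deep-layer neurons are born before upper-layer ones, and in the first days after birth the cells extend axons, grow dendrites and begin to form synapses. At that age the cortex also holds Cajal-Retzius cells, interneurons that migrate in from the ventral forebrain, glia, and vessels, whose RNA can enter a sort.

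Levels are given as CPM, the counts of a gene scaled to the total of its library, which compares 1 gene between libraries. Different genes are compared by TPM, in which counts are first divided by the length of the gene's exons, and a rank is the place of a gene in the order of mean TPM. Where 5 values follow each other, they belong to replicates 1, 3, 4, 5 and 6 in that order. The spread is the SD over the 5 libraries or the coefficient of variation (CV), the SD as a percentage of the mean. In bulk RNA, fewer cells of a type and less RNA per cell cannot be told apart.

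The 5 libraries held between 23497621 and 31233466 counts, of which 98.1% to 98.6% fell on protein-coding genes and 0.982% to 1.36% on mitochondrial ones. Xist, the RNA of the inactive X chromosome, was at 0, 0.256, 781, 580 and 366 CPM, and Ddx3y, a Y-linked gene, at 50.9, 45.8, 0, 0.283 and 0 CPM. Replicates 1 and 3 thus differed from replicates 4, 5 and 6 in sex-linked genes, and the first principal component of log2 CPM (55.8% of the variance) also set 1 and 3 (scores 0.266 and 0.163) apart from 4, 5 and 6 (-0.159, -0.143 and -0.127). Sex and any other difference between these sets of libraries cannot be told apart. Replicates 4 and 5 were the most alike pair, with an SD of the log2 ratio across genes of 0.247, and replicates 1 and 4 the least alike, with 0.472. Cdk7 itself was measured at 13.2, 10.1, 17.4, 20.3 and 17.2 CPM.

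A count was found for 26305 genes, and 13082 genes (12339 of them protein-coding) reached 1 CPM in all 5 libraries; these held 99.6% of the counts. The levels spanned several orders of magnitude: 9087 genes reached 10 CPM in every library, 2151 reached 100 CPM and 65 reached 1000 CPM. The RNA was not dominated by a few genes. The 10 most abundant took 3.76% to 4.06% of the counts of a library, the 100 most abundant 15.2% to 16.4% and the 1000 most abundant 47.1% to 49.5%. The median level was 2.76 TPM over all genes with a count and 13.4 TPM over the protein-coding ones, and these medians are the background for the levels named here.

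**Figure D1:**
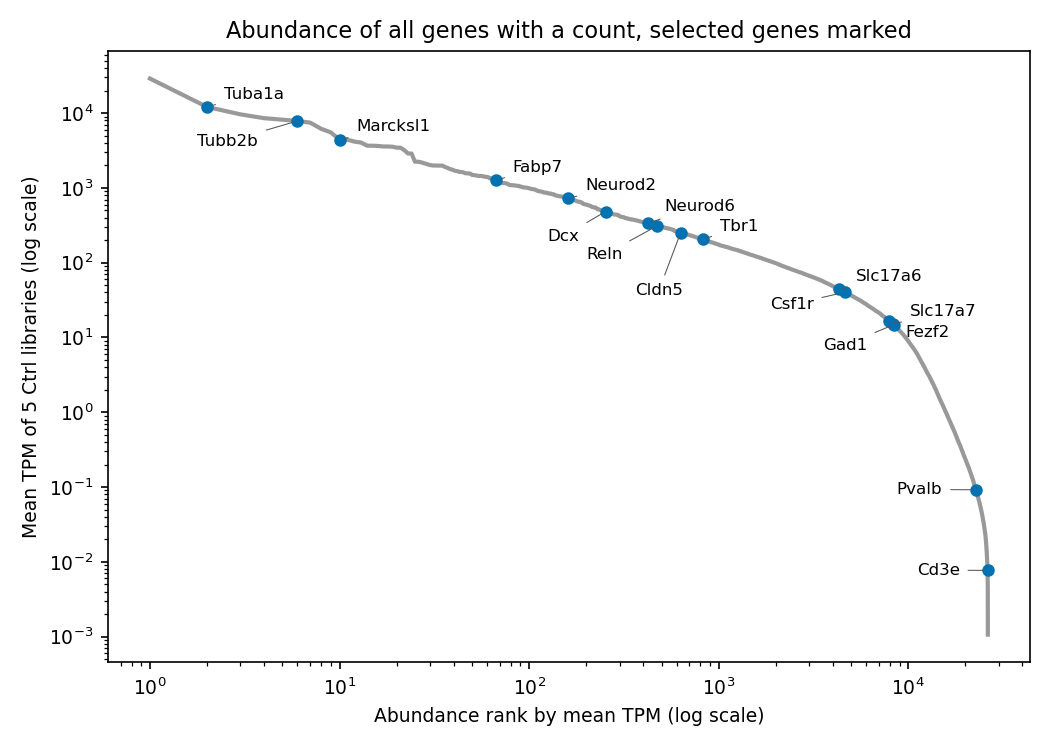
Mean TPM of the 5 Ctrl libraries (y axis, log scale) against abundance rank (x axis, log scale) for 26305 genes with a count, with selected genes as points. Tubulins and young-neuron genes such as Tuba1a and Marcksl1 lie at the left end, the transcription factors of projection neurons (Neurod2, Neurod6, Tbr1) in the upper part, and Slc17a7, Gad1 and Fezf2 together where the curve turns down.

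Cytoskeletal genes of young neurons were prominent among the most abundant RNAs, and 5 of the 25 genes of highest TPM were tubulins. Tuba1a, the main alpha-tubulin of young neurons, was second of all genes with 12123 ± 1450 TPM (SD, n = 5), Tubb2b sixth with 7870 ± 504 TPM, Tubb3 ninth with 5531 ± 625 TPM and Tubb5 twelfth with 4159 ± 286 TPM. Next to them stood Marcksl1, a membrane-bound regulator of actin (4419 ± 240 TPM), Stmn1, which binds tubulin dimers (4044 ± 269 TPM), and the beta-actin gene Actb with the actin-binding thymosins Tmsb4x and Tmsb10 (3580 to 3640 TPM). The rest of the 20 most abundant were the mitochondrial mt-Co1, mt-Cytb, mt-Nd1 and mt-Nd2 (3458 to 9640 TPM), the translation genes Eef1a1 and Rplp1, the chaperone gene Hsp90ab1, Ptma and Ptms, and the gene models Gm23935 and Gm42418. The 20 together made up 13.7% of the summed TPM and 5.06% of the counts.

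Gm23935 led the order by TPM with 29023 ± 5844 TPM (SD, n = 5), and its model is 57 bases long (GRCm38, chr16:11144125-11144181, plus strand, annotated as a miRNA). By CPM, with no division by length, it was rank 313, and with the models under 200 bases left out Tuba1a was first. Tubulin genes, like ribosomal protein genes, have near-identical copies, so that counts may have been split between them, and where antisense genes overlap their reads may be counted together, since the strand setting of the counting is not given in the sources used here.

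Of 4 marker genes of the sorted cells, 3 were abundant. Neurod6 also controlled the Cre that switched on the sorted reporter, so its level is no separate check of the sort. Neurod6 (chr6:55677822-55681263, minus strand), a bHLH transcription factor of postmitotic glutamatergic neurons, was at 178, 165, 178, 193 and 232 CPM, or 337 ± 48.9 TPM (SD, n = 5), rank 422. Tubb2b (chr13:34126748-34130466, minus strand), a beta-tubulin of migrating neurons, was at 5068, 5046, 4354, 4368 and 4769 CPM. Tbr1 (chr2:61802930-61814114, plus strand), a T-box factor of postmitotic projection neurons and of layer 6 in particular, was at 241, 234, 291, 328 and 370 CPM, or 204.5 ± 42.1 TPM, rank 827. Neurod6 and Tbr1 were both highest in replicate 6 and lowest in replicate 3, whereas Tubb2b was highest in replicates 1 and 3.

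Slc17a7 (chr7:45163949-45176142, plus strand), the vesicular glutamate transporter VGLUT1 of mature cortical neurons, did not stand out as the other markers did. It was at 15.5, 38.6, 29.5, 10.9 and 12.3 CPM, or 15.1 ± 8.42 TPM (SD, n = 5), rank 8312, which is close to the median of all protein-coding genes with a count. Its CV of 56.9% was also high: replicates 3 and 4 lay above the other 3, and its rank moved between 5930 and 10502 from library to library.

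The other transcription factors of projection neuron identity were well above the median gene. Zbtb18, a zinc finger repressor needed for cortical neuron development, had the highest TPM among the factors of the list, with 1828, 1548, 1399, 1733 and 2106 CPM (1074 ± 173 TPM, rank 85). Neurod2, a close relative of Neurod6, was at 620, 518, 514, 573 and 760 CPM (727 ± 127 TPM, rank 161). Both were highest in replicate 6, as Neurod6 and Tbr1 were. All 14 genes of this list reached 1 CPM in every library, and their median level was 205 TPM against 13.4 TPM over all protein-coding genes.

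The list as a whole differed little between libraries. Summed over its 14 genes it was 10967, 10189, 9590, 10379 and 11858 CPM, with a CV of 8.11%, and Tubb2b made up 44.6% of it. Without Tubb2b the highest library, replicate 6, was 1.38 times the lowest.

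Genes of axon growth and migration had the largest sum of the 30 lists described. The 18 listed genes summed to 31880, 31614, 28442, 28776 and 32151 CPM, 3.06% of all counts, with a CV of 5.91%, and 13 of the 18 were among the 100 genes of highest TPM. Dcx, the microtubule-associated protein doublecortin of migrating neurons, was at 1489, 1504, 1683, 1544 and 1745 CPM (482 ± 39.6 TPM, rank 253). Sox11, a transcription factor that keeps young neurons in their immature state, was at 576, 617, 936, 777 and 884 CPM (CV 20.97%, 350 ± 77.1 TPM). Sox11 was thus the most variable member of the group, lower in replicates 1 and 3, while the tubulins Tuba1a (6518, 5964, 4853, 5088 and 6158 CPM) and Tubb3 (2983, 2920, 2222, 2508 and 2880 CPM) were lowest in replicate 4.

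Genes of the mature synapse and axon were present at lower levels. The 15 genes of that list summed to 1154, 1425, 1271, 1138 and 1170 CPM (CV 9.73%), a small part of the sum of the growth genes. Syn1, which ties synaptic vesicles to the cytoskeleton, was at 193, 216, 181, 191 and 208 CPM (229 ± 14.0 TPM, rank 719), and Dlg4, the scaffold PSD-95 of excitatory synapses, at 305, 368, 335, 302 and 318 CPM (93.9 ± 6.79 TPM). These members of the synapse were even across libraries, with CVs of 7.16% and 8.21%.

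Other members of the same list were less even. Nrgn, a calmodulin-binding protein of dendrites, was at 58.6, 93.2, 56.5, 31.5 and 56.8 CPM (156 ± 55.4 TPM, rank 1158) and was highest in replicate 3, like Slc17a7. Thy1, a surface protein of mature axons, was at 38.4, 65.8, 47.1, 46.7 and 26.6 CPM and also highest there. Camk2a, the kinase subunit of mature excitatory synapses, was at 43.1, 48.6, 35.5, 32.3 and 35.5 CPM (19.96 ± 3.13 TPM, rank 7245). Replicate 3 was the highest library for all 3 of these genes and for the list. Of the 15 members of the list, 8 were highest in replicate 3 and 5 in replicate 4. Over all genes with a mean of at least 10 CPM, 18.6% were highest in replicate 3 and 29.7% in replicate 4. Nefh, the heavy neurofilament chain of large myelinated axons, was at 1.39 ± 0.827 TPM (SD, n = 5), and Pvalb, the calcium-binding protein of mature fast-spiking interneurons, was counted only in replicate 3, at 0.128 CPM.

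Transcripts of intermediate progenitors and newborn neurons were still found. Eomes (Tbr2), the factor that defines intermediate progenitors, was at 11.5, 17.0, 29.7, 37.9 and 27.9 CPM (22.9 ± 9.91 TPM, rank 6706), lower in replicates 1 and 3 than in the other 3. Insm1, a zinc finger factor of newborn neurons, was at 77.8, 96.7, 153, 117 and 131 CPM (142 ± 37.7 TPM) and followed the same division. Not all members did: Btg2, which slows division in progenitors, was highest in replicate 1 and lowest in replicate 6, at 94.9, 62.7, 63.9, 57.1 and 39.6 CPM, and Hes6 was even, at 74.7, 80.1, 84.6, 78.0 and 76.2 CPM. Neurog2, the proneural factor of dorsal progenitors, reached 9.14 ± 2.28 CPM (SD, n = 5), whereas Neurog1 was counted only in replicate 1 (0.213 CPM); in the other libraries a count of 0 allows up to 0.0961 to 0.121 CPM, counting error only.

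Of the lists for layers, that for layers 2 to 4 had the largest sum and the highest median member. The 15 genes listed for layers 2 to 4 summed to 3986, 3412, 3777, 3518 and 4227 CPM, those for layer 6 (12 genes) to 470, 545, 578, 551 and 460 CPM, and those for layer 5 (13 genes) to 260, 307, 365, 324 and 283 CPM. The sums depend on which genes are in a list, and Ptn, a secreted growth factor that glia also make, and Pou3f3 carried much of the first. Tbr1 was in the identity list, so the layer 6 sum and median leave it out. At 204.5 TPM it was above the upper-layer genes Cux2 (99.9 TPM), Cux1 (55.2 TPM) and Pou3f2 (157 TPM). It was below Ptn (1150 TPM), Pou3f3 (549 TPM) and Lmo4 (257 TPM). Per length, the median member was at 58.5 TPM in layers 2 to 4, 18.8 TPM in layer 6, 9.17 TPM in layer 5 and 4.80 TPM in the subplate, beside 13.4 TPM over all protein-coding genes.

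Among the upper-layer genes, Pou3f3 (Brn1), a POU factor of callosal neurons, was at 975, 954, 1245, 971 and 1166 CPM (549 ± 75.2 TPM, rank 221). Cux2, a homeodomain factor of layers 2 to 4, was at 310, 204, 235, 232 and 334 CPM (99.9 ± 21.7 TPM), and its relative Cux1 at 320, 242, 251, 262 and 370 CPM (55.2 ± 10.7 TPM). Both Cux genes were highest in replicates 1 and 6. Inhba, an activin subunit, followed the same pattern more steeply, with 14.1, 3.59, 7.26, 10.5 and 24.2 CPM (CV 66.1%). The pattern was not general: Pou3f2 (Brn2), a relative of Pou3f3, was at 190, 158, 255, 260 and 283 CPM (157 ± 37.6 TPM), with replicate 1 second lowest. Of the 15 upper-layer genes, 8 were highest in replicate 6 and 4 in replicate 1, while 4 were lowest in replicate 1. Over all genes with a mean of at least 10 CPM, 16.6% were highest in replicate 6 and 17.9% in replicate 1.

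In layer 5, 5 of the 13 listed members were highest in replicate 4. That library was also the highest for 29.7% of all genes with a mean of at least 10 CPM. Bcl11b (Ctip2), the zinc finger factor of neurons that project to the brainstem and spinal cord, was at 45.9, 79.2, 125, 96.7 and 66.3 CPM (39.0 ± 14.4 TPM, rank 4751). Fezf2, which specifies these subcerebral neurons, was at 10.7, 17.8, 24.1, 9.90 and 4.66 CPM (16.9 ± 9.58 TPM, rank 7898). Crym, an enzyme and thyroid hormone-binding protein of layer 5, was at 25.9, 18.4, 27.6, 10.1 and 4.77 CPM. All 3 were highest in replicate 4, and Fezf2 and Crym were lowest in replicate 6, while Etv1, an ETS factor of layer 5, was at 31.8, 55.8, 59.7, 63.8 and 49.0 CPM and lowest in replicate 1. Ldb2, a LIM domain-binding cofactor and the layer 5 member of highest TPM (75.9 ± 16.1 TPM), ran the other way, with 81.4, 78.6, 44.8, 64.4 and 62.6 CPM and replicate 4 lowest.

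In layer 6, Tle4, a co-repressor of neurons that project to the thalamus, was at 31.5, 49.4, 67.3, 52.1 and 36.8 CPM, highest in replicate 4 as Bcl11b was. Foxp2, a forkhead factor of deep-layer neurons, was low and uneven, with 2.64, 4.90, 12.8, 19.3 and 10.1 CPM (2.34 ± 1.57 TPM). Rprm, a cell-cycle regulator, was the most abundant layer 6 gene per length and the most even one among those described, with 79.9, 87.5, 89.8, 82.1 and 77.4 CPM (218 ± 13.4 TPM, CV 6.21%). Ntsr1, the neurotensin receptor of corticothalamic cells, ran against Tle4, with 134, 108, 52.9, 83.2 and 104 CPM.

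Subplate genes ranged from well above to far below the median gene. The 12 genes summed to 157, 206, 178, 171 and 127 CPM, highest in replicate 3. Nxph3, a neurexophilin, was the most abundant at 37.9, 53.4, 52.4, 57.8 and 43.7 CPM (89.4 ± 14.7 TPM, rank 2198), followed by Gabra5 (49.95 ± 10.8 TPM) and Tmem163 (24.5 ± 7.54 TPM), all above the 13.4 TPM of the median protein-coding gene. The markers with lower levels differed more. Nr4a2, a nuclear receptor of the subplate, was at 16.8, 16.6, 12.6, 5.55 and 5.77 CPM and Ccn2, a secreted matrix protein of the same cells, at 8.81, 5.70, 2.79, 3.43 and 3.15 CPM. Cplx3, a complexin of subplate neurons, was at 1.08 ± 0.558 TPM (SD, n = 5). Nr4a2 was lower in replicates 5 and 6 than in the others, and Ccn2 higher in replicates 1 and 3.

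Ratios within a library, which do not depend on scaling, gave the same order in every library. The log2 ratio of Cux2 to Fezf2 in TPM was 3.13, 1.79, 1.56, 2.83 and 4.43, and that of Bcl11b to Tbr1 was -2.96, -2.13, -1.79, -2.32 and -3.04. The upper-layer gene was above the subcerebral gene in 5 of 5 libraries, on average by 6.72 times. The ratio of Cux2 to Fezf2 was highest in replicates 1 and 6 and lowest in replicate 4, and Bcl11b was lowest relative to Tbr1 in those same replicates 1 and 6.

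**Figure D2:**
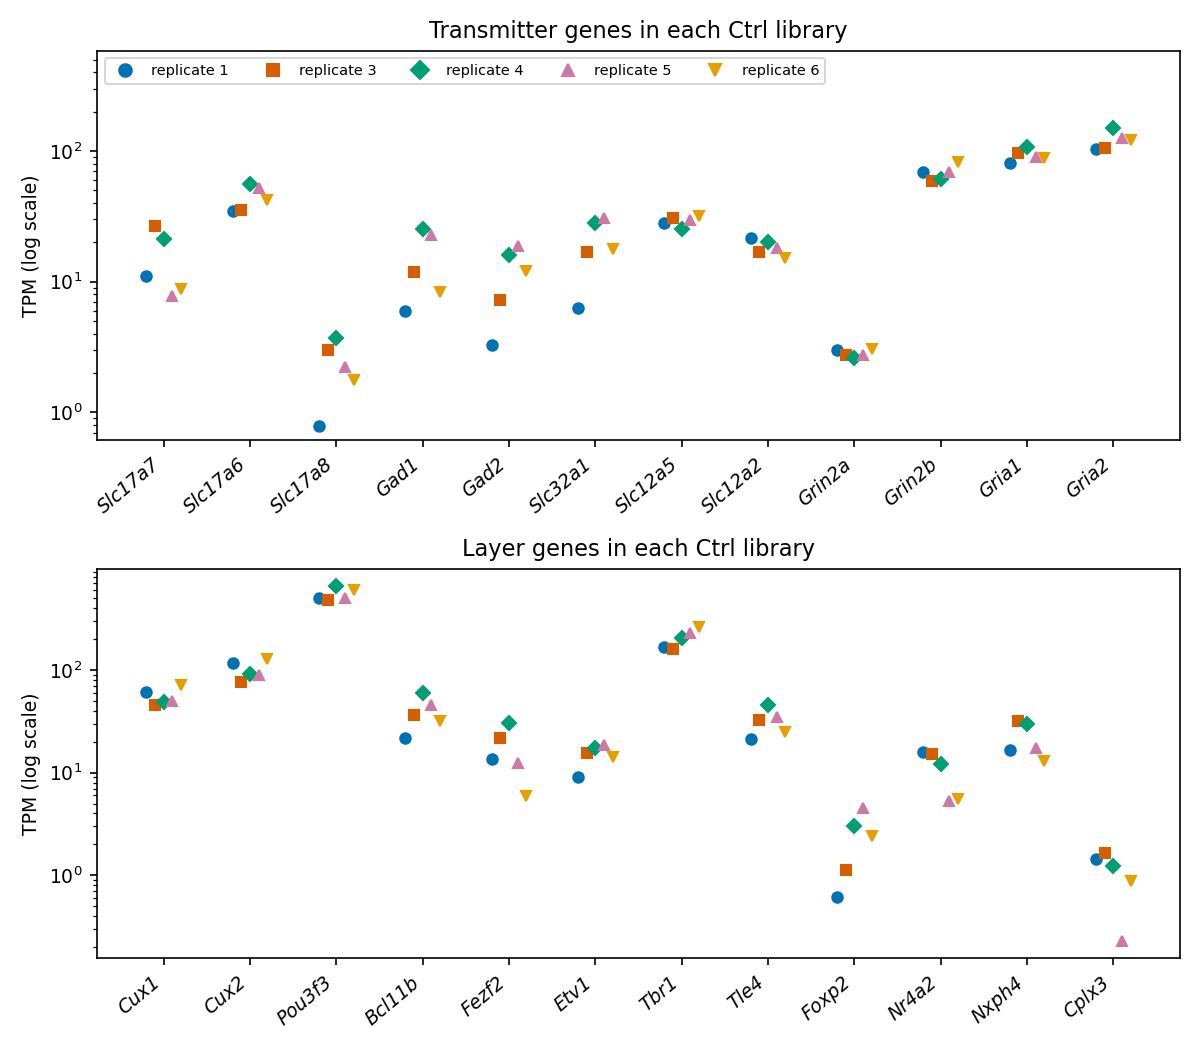
TPM (log scale) of transmitter genes (top) and layer genes (bottom) in each of the 5 Ctrl libraries, 1 symbol per replicate. The NMDA receptor subunit Grin2b lies far above Grin2a in every library, Slc17a6 above Slc17a7, and among the layer genes Cux2 above Fezf2, with the highest CVs among the plotted genes in Foxp2, Gad1, Slc17a7 and Fezf2.

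Genes of areal patterning were even in sum, with 1150, 1223, 1170, 1176 and 1152 CPM and the lowest CV of the 30 lists (2.52%). Without replicate 1 the receptors for acetylcholine and monoamines had a lower one (1.90% against 2.56%), and without replicate 6 the genes of dividing cells did (1.97% against 2.64%). Nr2f1 (COUP-TFI), a nuclear receptor that is graded from caudal to rostral cortex, was at 270, 234, 271, 204 and 219 CPM, and Id2, an inhibitor of bHLH factors, at 207, 266, 254, 286 and 248 CPM. Single members were less even and did not share an order. Dok5, an adaptor protein, was at 219, 202, 125, 164 and 185 CPM, lowest in replicate 4, whereas Nr2f2 was highest there, at 30.4, 41.8, 67.1, 43.2 and 20.02 CPM. Sp8, a factor also expressed in interneurons, was at 3.87, 5.92, 18.4, 29.6 and 24.1 CPM. Genes of the hippocampal formation, which NexCre also labels, summed to 849, 1047, 1228, 1157 and 1078 CPM. Zbtb20, a zinc finger repressor of hippocampal neurons that is also made by astrocytes, gave 62.7% of that sum and was lowest in replicate 1 (426, 553, 831, 788 and 761 CPM). Prox1, the homeodomain factor of dentate granule cells, was at 5.76 ± 2.45 TPM (SD, n = 5), and Fibcd1, a marker of the CA1 field, at 10.2 ± 3.11 TPM.

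Among the genes for transmitter handling, Slc17a6 was above Slc17a7. Slc17a6 (VGLUT2), the glutamate transporter of young cortical and of thalamic neurons, was at 48.9, 51.2, 77.9, 72.6 and 58.7 CPM (43.9 ± 9.60 TPM, rank 4323). The log2 ratio of Slc17a7 to Slc17a6 in TPM was -1.66, -0.407, -1.40, -2.74 and -2.26, with a mean of -1.69 ± 0.889 (SD, n = 5), so that Slc17a6 was 3.23 times as high on average. It was negative in 5 of 5 libraries; with the length of the longest transcript in place of all exons the mean was -1.27 and 1 library was positive. Slc17a8 (VGLUT3) was at 2.29 ± 1.12 TPM.

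Gad1, which makes GABA and marks interneurons, was at 11.8, 24.3, 49.9, 44.9 and 16.6 CPM (14.8 ± 8.67 TPM). It was highest in replicates 4 and 5 and lowest in replicate 1. Glul, glutamine synthetase, which astrocytes make, was the most abundant gene of the transmitter list with 336 ± 45.1 TPM (SD, n = 5). Several genes for other transmitters were low or without counts: Dbh, which makes noradrenaline, had no count in any library (3 counts of a library total allow 0.0961 to 0.128 CPM), Chat, which makes acetylcholine, was counted only in replicate 3, at 0.0961 CPM, and Slc5a7, the choline transporter, was at 1.03 ± 0.813 CPM.

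Receptors for glutamate were among the most even groups in sum, though not gene by gene. Their members at a mean of at least 1 CPM had a median CV of 14.62%, beside 14.61% over all such genes. The 24 genes summed to 1948, 2000, 2128, 2041 and 2127 CPM (CV 3.85%). Gria2, the AMPA receptor subunit that blocks calcium entry, was at 420, 439, 603, 511 and 488 CPM (121 ± 19.1 TPM), and Gria1 at 128, 156, 166, 141 and 139 CPM (92.5 ± 9.57 TPM). Grin2b, the NMDA receptor subunit of the young brain, was at 446.7, 395.6, 394.6, 447.0 and 532.5 CPM (68.3 ± 9.06 TPM), and Grin2a, which takes over later, at 14.2, 13.2, 12.1, 12.8 and 14.2 CPM (2.83 ± 0.193 TPM). The log2 ratio of Grin2b to Grin2a was 4.58 ± 0.128 (SD, n = 5), or 24.0-fold, and had the smallest spread of the 6 ratios. Gria2 was above Gria1 in 5 of 5 libraries, by 0.382 ± 0.153 on the log2 scale.

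The genes that answer GABA were likewise even in sum, at 1466, 1603, 1402, 1460 and 1555 CPM (CV 5.39%). Their members at a mean of at least 1 CPM had a median CV of 14.2%. The GABA-A receptor subunit gene Gabra2 was at 87.5 ± 12.1 TPM (SD, n = 5), and the 2 GABA-B receptor genes Gabbr1 (249 ± 16.0 TPM) and Gabbr2 (99.2 ± 14.3 TPM) were well measured. Gabra6, a subunit of cerebellar granule cells, had no count. Whether GABA excites or inhibits depends on chloride, which Slc12a2 (NKCC1) carries in and Slc12a5 (KCC2) carries out. Slc12a5 was at 55.2, 61.4, 48.9, 57.1 and 61.5 CPM (29.2 ± 2.47 TPM) and Slc12a2 at 61.3, 49.6, 57.0, 51.1 and 43.2 CPM (18.4 ± 2.50 TPM). Their log2 ratio was 0.400, 0.860, 0.330, 0.714 and 1.06 with all exons as length, 5 of 5 positive. By the longest transcript the mean was 0.234 and by counts 0.121, each with 3 of 5 libraries positive, so that the order of this pair depended on the length used.

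Receptors for acetylcholine and monoamines were low, with 170, 193, 202, 197 and 198 CPM over 21 genes, 47.1% of it from Chrnb2, the beta-2 subunit of nicotinic receptors (82.3, 86.5, 99.4, 87.1 and 96.3 CPM). Htr3a, the serotonin-gated channel of interneurons from the caudal ganglionic eminence, was at 1.57, 3.23, 6.90, 9.61 and 3.29 CPM, highest in replicates 4 and 5 as Gad1 was. Of the neuropeptides, Cck, cholecystokinin, was at 119, 197, 119, 124 and 93.3 CPM (381 ± 108 TPM, rank 344), and Chga, a granin of secretory vesicles, was the most even, at 124, 123, 124, 114 and 126 CPM. Npy and Sst, peptides of interneurons, were at 10.5, 27.5, 40.5, 29.9 and 17.6 CPM and at 6.81, 29.3, 42.9, 39.5 and 14.7 CPM. Both were lowest in replicate 1 and highest in replicate 4. Nts, neurotensin, was at 7.06, 41.5, 19.0, 6.18 and 5.77 CPM and stood out in replicate 3.

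Markers of cells other than projection neurons were present, and many of their sums varied widely between libraries. Of the 15 lists for other cells, 11 had a CV over 30% for their summed CPM, against 0 of the 15 lists for neuron identity, layers and transmitters, whose CVs lay between 2.52% and 19.3%. The 4 other-cell lists with lower CVs were those of striatal and thalamic neurons, dividing cells, radial glia, and choroid plexus and ependyma (9.35% to 17.0%). In the list of choroid plexus and ependyma, 2 of 11 members reached 1 CPM in all 5 libraries, and Enpp2 gave 65.4% of the sum. Without Enpp2 the highest library was 2.58 times the lowest, against 1.52 times with it. Single neuronal genes varied as widely: the CV was 56.4% for Fezf2, 56.9% for Crym, 66.4% for Foxp2 and 96.4% for Nts. The other-cell lists together made up 0.973% of the counts, and the 4 identity lists 4.27%. Within the identity lists, growth and migration of young neurons made up 3.06% of the counts and projection neuron identity 1.06%. These shares depend on which genes were listed and do not measure the purity of the sort. Several of the listed genes are also made by neurons, and the part of each sum that came from the sorted neurons was not tested.

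**Figure D3:**
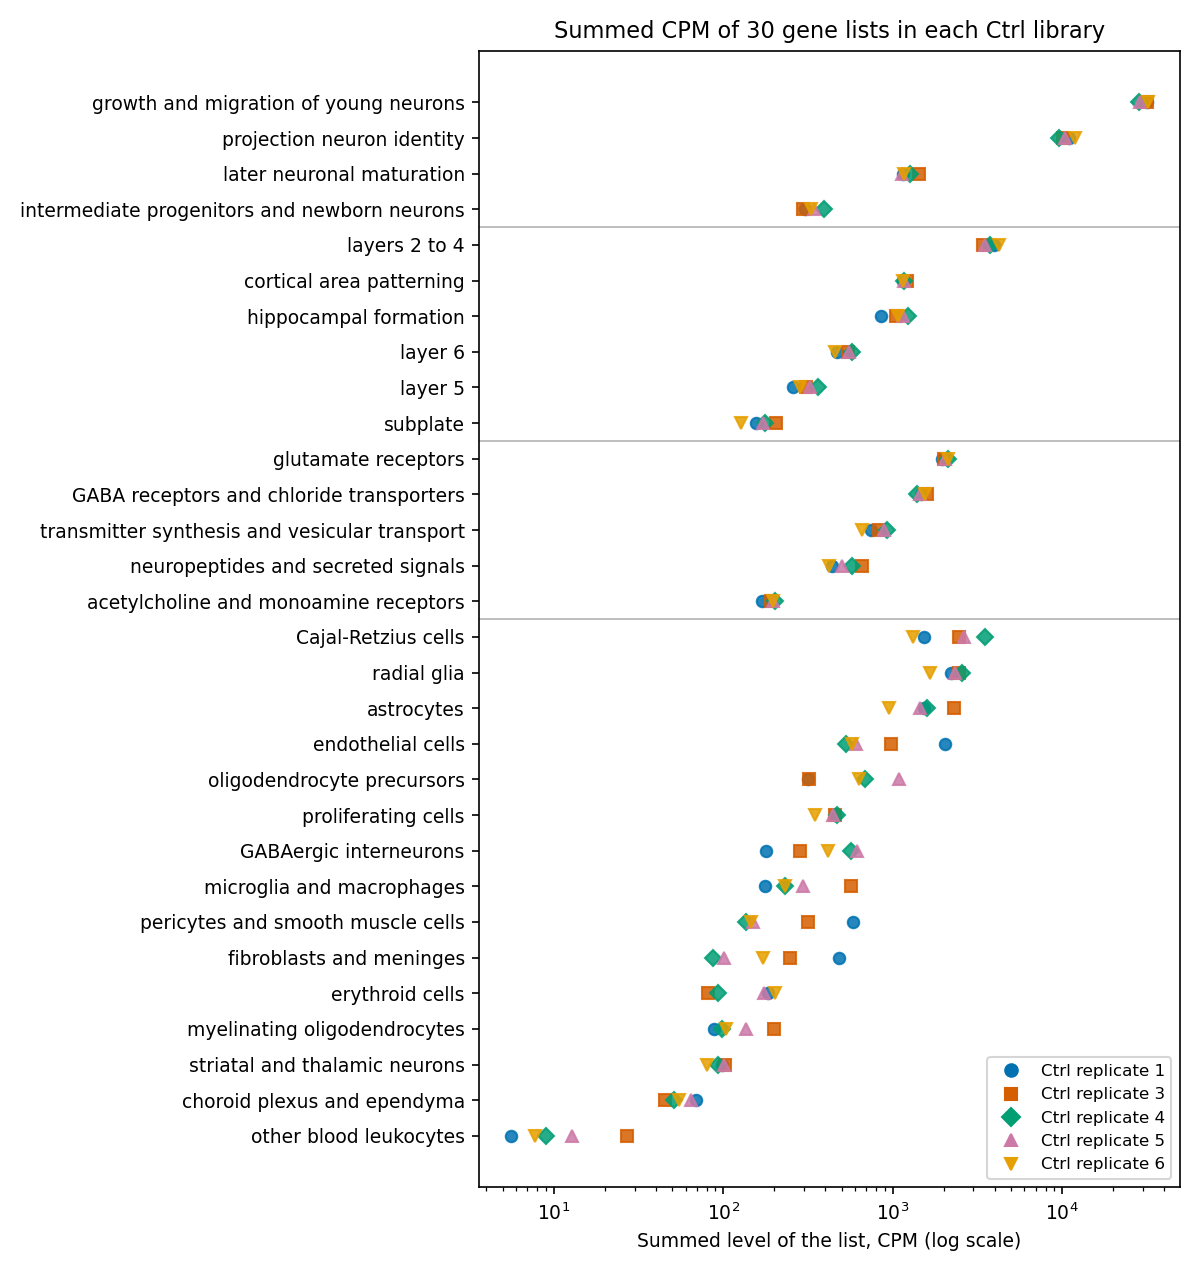
Summed CPM (log scale) of 30 gene lists in each of the 5 Ctrl libraries, 1 symbol per replicate, grouped from top to bottom as identity, layer, transmitter and other-cell lists. In the upper 15 lists the highest library is 1.06 to 1.62 times the lowest, while those of endothelial cells, pericytes, fibroblasts, microglia, interneurons and oligodendrocyte precursors are spread over 3 to 6 times.

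Cajal-Retzius cells, the Reln-secreting neurons of layer 1, had a list sum of 1533, 2481, 3503, 2627 and 1312 CPM. Its mean of 2291 CPM was near the 2249 CPM of radial glia, and per length it was lower, with 497 against 2201 TPM. Reln, the extracellular signal reelin, carried 84.3% of it with 1290, 2080, 2981, 2204 and 1105 CPM, rank 20 by CPM and 474 by TPM (312 ± 124 TPM). Trp73, a p53 relative of these cells, was at 47.7, 78.9, 92.9, 76.6 and 34.7 CPM, and Lhx5, a LIM homeodomain factor, at 7.87, 12.04, 23.0, 13.4 and 6.96 CPM. All 8 members of the list, among them Lhx1 and Ndnf, were highest in replicate 4, as were 29.7% of all genes with a mean of at least 10 CPM. The sum without Reln kept a ratio of the highest to the lowest library of 2.52.

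Genes of GABAergic interneurons were lowest in replicate 1 and highest in replicates 4 and 5. Their 15 genes summed to 180, 283, 570, 615 and 417 CPM (CV 44.8%). Dlx1, a homeodomain factor of interneurons and their progenitors, was at 23.9, 46.1, 106, 130 and 82.0 CPM, and Dlx2 at 9.62, 15.5, 46.5, 57.3 and 44.2 CPM. Calb2, calretinin, which Cajal-Retzius cells also make, was at 46.3, 63.0, 89.8, 75.7 and 42.8 CPM. Nkx2-1, the factor of medial ganglionic eminence progenitors, was at 0.468, 1.19, 2.46, 2.62 and 0.481 CPM. Without replicate 1 the highest library was 2.17 times the lowest, against 3.42 times with it. Genes of striatal and thalamic neurons were low and even in sum (98.0, 103, 93.0, 101 and 80.8 CPM); Drd1 and Drd2, dopamine receptors of striatal neurons, were at 1.26 ± 0.406 and 2.71 ± 2.30 TPM (SD, n = 5).

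Among the glial lists, radial glial genes had the largest sum and the most even one (CV 16.0%). They summed to 2204, 2462, 2582, 2342 and 1656 CPM, with Fabp7, a fatty acid-binding protein, at 391, 479, 514, 429 and 252 CPM (1264 ± 310 TPM, rank 67) and Ptprz1, a receptor phosphatase, at 844, 1012, 1070, 966 and 702 CPM. Ptprz1 gave 40.8% of the sum, and without it the highest library was 1.585 times the lowest, against 1.559 times with it. Sox2, a stem cell factor, was at 34.1, 44.8, 64.0, 74.8 and 45.7 CPM, and Pax6, the factor of dorsal radial glia, at 6.62 ± 2.45 TPM. Sox2 and Pax6 were highest in replicates 4 and 5, whereas Hes1, a Notch target, was highest in replicate 1 (22.8, 10.7, 10.5, 9.22 and 3.26 CPM).

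Astrocyte genes were highest in replicate 3 and lowest in replicate 6, with 1528, 2302, 1589, 1450 and 947 CPM. Apoe, the lipid carrier of astrocytes and microglia, was at 502, 953, 472, 424 and 306 CPM (947 ± 423 TPM, rank 108), Slc1a3, the glutamate transporter GLAST, at 331, 424, 367, 333 and 207 CPM, and Aqp4, the water channel of astrocyte endfeet, at 60.4, 83.3, 50.04, 50.3 and 31.4 CPM. Of the 13 members at 1 CPM or more in all libraries, 11 were highest in replicate 3, as were 18.6% of all genes with a mean of at least 10 CPM. Without replicate 6 the highest library was 1.59 times the lowest, against 2.43 times with it.

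Genes of oligodendrocyte precursors were highest in replicate 5. Their 9 genes summed to 319, 322, 692, 1097 and 636 CPM. All 9 were highest in replicate 5, as were 17.1% of all genes with a mean of at least 10 CPM. Pdgfra, the growth factor receptor that defines these cells, was at 85.4, 61.5, 221, 344 and 205 CPM, Olig1 at 73.0, 90.0, 152, 229 and 132 CPM, and Gpr17, a receptor of cells about to differentiate, at 29.7, 40.5, 92.3, 170 and 82.6 CPM. For these 3 genes replicates 1 and 3 were below replicates 4, 5 and 6, the division that the first principal component also made. The share of all genes divided in this way was not counted. Without replicate 5 the highest library was 2.17 times the lowest for the list, against 3.44 times with it. Genes of myelinating oligodendrocytes followed another order, with 88.3, 198, 98.3, 137 and 104 CPM and replicate 3 highest; Mbp, myelin basic protein, was at 39.3, 81.7, 39.3, 55.4 and 46.7 CPM, Mog was at 0.464 ± 0.216 CPM and Opalin had no count.

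Microglial and macrophage genes were highest in replicate 3. They summed to 177, 567, 233, 297 and 231 CPM. In that library 14 of 16 members were highest, beside 18.6% of all genes with a mean of at least 10 CPM. Csf1r, the receptor on which microglia depend, was at 35.0, 123, 42.9, 60.0 and 44.9 CPM, C1qb, a complement subunit, at 13.1, 46.4, 17.6, 25.3 and 16.7 CPM, and Cx3cr1, the fractalkine receptor, at 14.9, 40.4, 23.3, 41.0 and 22.1 CPM. Mrc1 and Pf4, which mark macrophages at the border of the brain, were highest in replicates 3 and 6: Mrc1 was at 4.98, 52.2, 4.24, 4.49 and 25.4 CPM and Pf4 at 0.213, 6.69, 0.0807, 0 and 2.48 CPM. Without replicate 3 the highest library was 1.68 times the lowest for the microglial list, against 3.20 times with it. Of other leukocyte genes, Lyz2 gave 90.3% of the sum and was also highest in replicate 3 (4.00, 26.4, 8.47, 10.4 and 7.07 CPM). Without that replicate the highest library was 2.30 times the lowest for the leukocyte list, against 4.83 times with it. Cd3e of T cells was counted only in replicate 4, at 0.0404 CPM, and Nkg7 of cytotoxic cells had no count.

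Vascular genes were highest in replicate 1. The 15 endothelial genes summed to 2027, 980, 529, 611 and 577 CPM. All 15 were highest in replicate 1, as were 17.9% of all genes with a mean of at least 10 CPM. Cldn5, a tight junction protein of brain endothelium, was at 255, 96.0, 32.5, 46.0 and 40.2 CPM (CV 99.4%), Pecam1 at 92.0, 31.8, 15.2, 15.4 and 13.7 CPM and Cdh5, the endothelial cadherin, at 90.6, 36.3, 12.2, 13.5 and 16.5 CPM. In each case replicate 1 was far above, replicate 3 was second, and the other 3 lay close together. Bsg, basigin, which neurons make too, gave 44.9% of the sum, and the ratio of the highest to the lowest library was 3.83 with it and 6.10 without it. Leaving out replicate 1 brought the ratio to 1.85 and the mean of the sum from 945 to 674 CPM.

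Genes of pericytes and smooth muscle cells gave the same order, with 582, 319, 137, 151 and 147 CPM. Rgs5, a pericyte regulator of G proteins, was at 315, 166, 58.0, 71.2 and 67.9 CPM, and Kcnj8, a potassium channel of pericytes, at 21.02, 5.83, 2.54, 2.69 and 3.29 CPM. Genes of fibroblasts and meninges summed to 484, 249, 86.9, 102 and 173 CPM, of which Fn1, fibronectin, which vessels also make, was 77.4%, at 425, 162, 76.8, 81.9 and 101 CPM. The collagen genes Col1a1, Col1a2 and Col3a1 were highest in replicate 3, unlike Fn1. Col1a1 was at 3.02, 19.8, 3.59, 5.58 and 18.9 CPM, lowest in replicate 1. Col1a2 was at 21.9, 28.9, 3.03, 6.33 and 23.3 CPM and Col3a1 at 14.9, 22.8, 1.73, 3.78 and 12.1 CPM. These last were lowest in replicate 4, as Fn1 was. Ptgds, a product of the meninges, was at 0.383, 3.94, 0.282, 0.0707 and 7.92 CPM. Replicates 3 and 6 were thus highest for Ptgds, Col1a1 and Col1a2, as for Mrc1 and Pf4, and replicates 3 and 1 for Col3a1. Without replicate 1 the ratio of the highest to the lowest library was 2.33 for the pericyte list (4.26 with it) and 2.87 for the fibroblast list (5.57 with it).

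Red blood cell genes were higher in replicates 1, 5 and 6 than in replicates 3 and 4, with 185, 82.0, 93.4, 175 and 202 CPM in sum. Hbb-bs, an adult beta-globin, was at 90.1, 40.9, 48.4, 77.9 and 98.4 CPM and Hba-a1, an alpha-globin, at 63.2, 26.9, 29.6, 64.0 and 65.6 CPM; globin genes have near-identical copies and share reads. The embryonic globin Hbb-y had no count. Genes of choroid plexus and ependyma were low, at 69.1, 45.5, 51.3, 64.6 and 54.7 CPM, and Ttr, the transthyretin that fills choroid plexus cells, was at 0.255, 0, 1.45, 0.778 and 0.666 CPM. Genes of dividing cells summed to 458, 457, 468, 446 and 346 CPM, with Mki67 at 42.3, 40.8, 50.04, 36.3 and 29.7 CPM and Top2a at 48.8, 50.5, 50.3, 39.0 and 32.1 CPM. Replicate 6 was the lowest library for the dividing-cell list, as it was for radial glia, astrocytes and Cajal-Retzius cells.

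**Figure D4:**
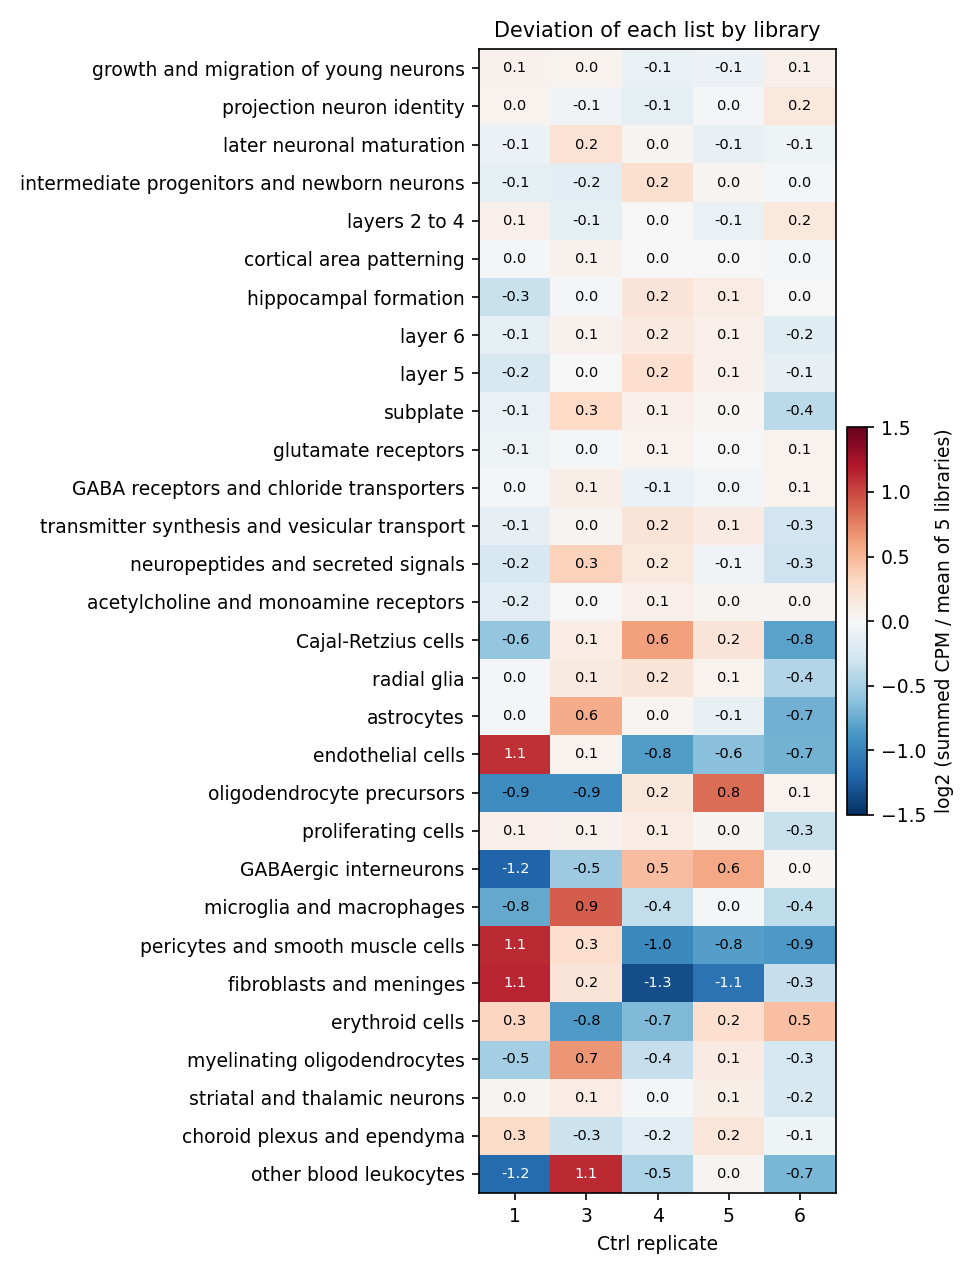
Log2 of each list's summed CPM over its mean across the 5 Ctrl libraries, with the rounded value in each cell, lists as rows and replicates as columns. Vascular lists are high in replicate 1, microglia, astrocytes and leukocytes in replicate 3, Cajal-Retzius cells in replicate 4 and oligodendrocyte precursors and interneurons in replicate 5, while in the rows for neuron identity the highest library is at most 1.33 times the lowest.

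Between-library spread across all genes fell with the level. The median CV was 29.3% for the 4323 genes with a mean of 1 to 10 CPM, 12.4% for the 7345 genes from 10 to 100 CPM, 7.55% for the 2390 genes from 100 to 1000 CPM and 7.30% for the 77 genes above that. Over the 9812 genes with a mean of at least 10 CPM it was 10.9%, while counting error alone would give 2.84%. The highest library of the median gene was 1.31 times its lowest. Of these genes 44.6% had a CV under 10%, 5.75% had one over 30% and 200 (2.04%) had one over 50%. The biological coefficient of variation that edgeR estimated with no groups in the model was 0.239 in common over 14135 genes (mean CPM of 1 or more), and its median was 0.143 over the subset averaging 10 CPM or more.

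**Figure D5:**
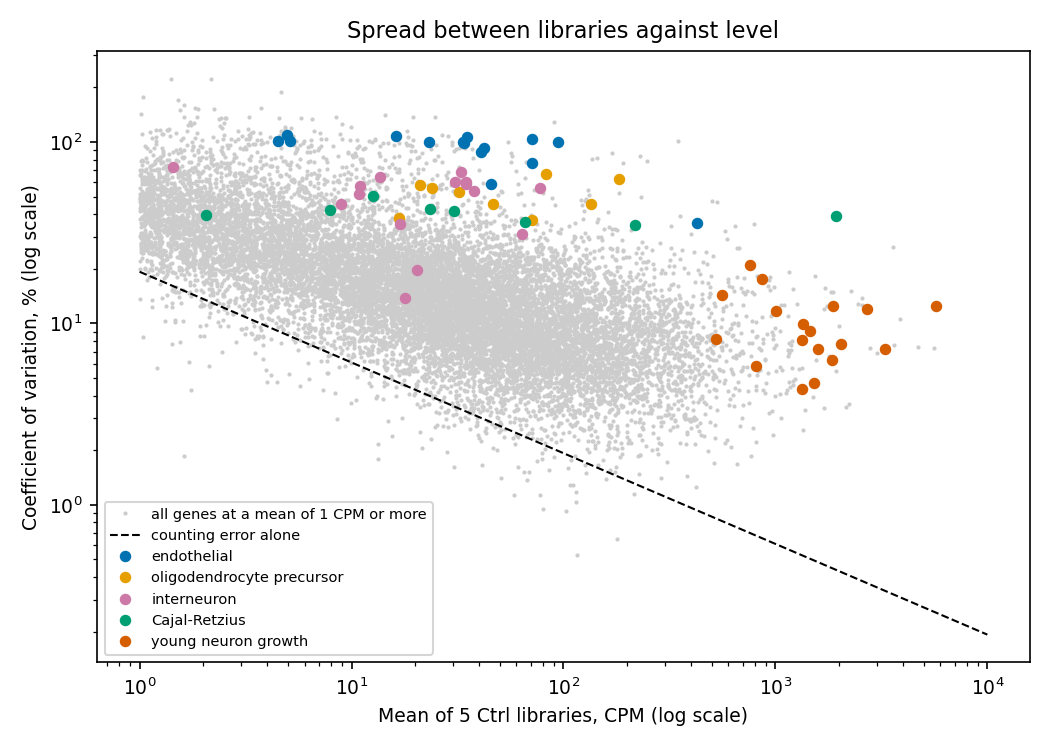
Coefficient of variation over the 5 Ctrl libraries (y axis, %, log scale) against mean CPM (x axis, log scale) for genes with a mean of at least 1 CPM, with members of 5 lists in colour and the counting error at the mean depth as a dashed line. Endothelial genes lie at the upper edge near 100%, interneuron, Cajal-Retzius and oligodendrocyte precursor genes above the bulk, and the genes of young neurons at the right near 10%.

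The protein-coding genes that differed most between libraries included many known from endothelial cells. After the Y-linked Eif2s3y and Ddx3y and the macrophage gene Mrc1, the 20 of highest CV at a mean of at least 10 CPM were Slc38a5, Tek, Apold1, Tie1, Cgnl1, Sox7, Kdr, Flt4, Icam1, Abcb1a, Egfl7, Cd93, Esam, Aplnr, Cd34, Pecam1 and Cldn5. Tek, Tie1, Kdr and Flt4 are receptors of endothelial growth factors, and Abcb1a is the drug efflux pump of the blood-brain barrier. Kdr was at 202, 60.3, 27.0, 33.8 and 33.4 CPM, and Slc38a5, an amino acid transporter, at 77.9, 23.7, 8.47, 14.1 and 9.85 CPM. All 20 except Mrc1 were highest in replicate 1. Of the 100 protein-coding genes of highest CV, 90 were highest in replicate 1, where 17.9% of all genes with a mean of at least 10 CPM were highest; 10 of the 100 belonged to the endothelial list, which held 12 (0.126%) of the 9507 genes ranked, 4 to the pericyte list and 4 to the fibroblast list, and 77 belonged to none of the 30 lists. Without replicate 1, 89 genes (0.91%) had a CV over 50%.

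The most even genes included enzymes and transport proteins found in most cells. Prmt5, an arginine methyltransferase, was at 116, 116, 115, 117 and 116 CPM, with a CV of 0.530%, below its counting error of 1.79%. Rab1b, a small GTPase of transport from the endoplasmic reticulum, was at 179, 180, 177, 178 and 178 CPM, and Cox5b, a subunit of cytochrome c oxidase, at 104, 102, 101, 103 and 102 CPM. The other 7 were Cd276, Cd99l2, Ruvbl1, Ppp1r21, Ubqln1, Apba1 and Rnf10, with CVs from 0.944% to 1.25%. They are the extremes of the 9507 protein-coding genes ranked. Of all 9812 genes with a mean of at least 10 CPM, 111 had a CV below their counting error.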

How the data were processed

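Whole-number counts per gene and library were deposited by the authors in 1 table, not normalized. STAR, Salmon and the GRCm38 build were used, per the submitters' processing notes; neither versions, nor the counter and its strand setting, nor the use made of each tool is given in the sources used here. All count columns matched a sample by name (0 left over), and only the 5 Ctrl columns were used. Of 55573 gene IDs, 55480 matched GENCODE M21, from which lengths (the union of a gene's exons), biotypes and coordinates came, and 93 did not. For 117 symbols shared by several IDs the one with the most counts was used. CPM used library totals, and TPM was computed from the same counts. Principal components used log2 CPM with an offset of 0.5. No test was made, since 1 group is described. R 4.3.3 with edgeR 4.0.16 gave TMM and RLE factors and the biological coefficient of variation, and Python 3.11.15 the rest. The measures of spread (CV and biological coefficient of variation) were tested on simulated data. No library was a copy of another (chi-square per gene of at least 14.9 for each pair). Total counts limit precision most for genes under 1 CPM, and the limit for a count of 0 is 3 counts, covering counting error only.

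The 30 lists (417 entries, 416 in the table, 411 with a count; Ahsp was not in it) and the rule for named genes were chosen with earlier results of these data known. The rule took the 4 markers, the genes of the ratios, the first 3, the 3 highest in TPM and the most variable member of each list, the 20 genes of highest TPM, and, at a mean of at least 10 CPM, the 20 protein-coding genes of highest and the 10 of lowest CV (221 genes), and allowed members under 0.1 CPM in every library. A pair of the ratios is not reported here; Gad1 belonged to one of them. Xist, Chat, Pvalb, and the plotted Gad2, Slc32a1 and Nxph4 were named after their values were seen. Alternatives were TMM and RLE scaling, other thresholds, TPM in place of CPM and leaving out each library; the longest transcript as length, leaving out short models, Y-linked genes with Xist or a list's most abundant member, and leaving out each library for the ratios of highest to lowest library were added after the data were seen.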

Additional observations from a re-analysis of the deposited data

Results flagged for a closer look

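From 263 groups of 5 values (named genes, list sums, ratios and library measures), the Y-linked Ddx3y and Eif2s3y were left out. In the rest, a library was picked out when its gap to the nearest other library was over 0.71 of the whole range. It happened in 28. Chance alone does this in about 1 group in 20 where groups are not chosen by their values; many of these genes were chosen for a high or low CV, so the 28 are a description and no excess is read from them. No cause was tested.

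Replicate 1 stood above the other 4 for 18 genes. Those of the vessel wall were Cldn5 (255 CPM), Pecam1 (92.0 CPM), Itm2a (103 CPM), Kcnj8 (21.02 CPM), Fn1 (425 CPM), Slc38a5 (77.9 CPM), Tek (47.1 CPM), Cgnl1 (44.5 CPM), Kdr (202 CPM), Flt4 (29.8 CPM), Abcb1a (36.0 CPM), Egfl7 (33.4 CPM), Cd93 (150 CPM), Esam (63.2 CPM), Aplnr (34.5 CPM) and Cd34 (81.7 CPM). Each of these 16 had its second highest value in replicate 3, for example 96.0 CPM for Cldn5 and 60.3 CPM for Kdr. Ppp1r21, one of the most even genes, was at 79.0 CPM in replicate 1 and at most 77.4 CPM elsewhere, and Neurog1 was at 0.213 CPM in replicate 1 and 0 elsewhere. The summed acetylcholine and monoamine receptors were lowest in replicate 1, at 170 CPM against 193 CPM in the next library.

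Replicate 3 stood above the others for Csf1r (123 CPM), Lyz2 (26.4 CPM) and Gabra5 (55.01 CPM), a GABA-A receptor subunit of the subplate and hippocampus. Replicate 5 stood above them for Isl1 (3.75 CPM), a factor of striatal neurons, and below them for Chga (114 CPM). Replicate 4 was highest for Cd3e (0.0404 CPM, with 0 elsewhere) and lowest for Cd276 (78.5 CPM, with 79.9 CPM next). Replicate 6 was lowest for Pcna, a replication clamp (66.9 CPM), and for the summed genes of dividing cells (346 CPM, with 446 CPM next).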

How the results depend on the processing

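TMM and RLE scaling moved no named level, list sum, gene number or median CV by more than 1 SD or 1.5 times. Under either scaling 3 lists had another highest library (glutamate receptors, acetylcholine and monoamine receptors, dividing cells). Leaving out 1 library moved no list sum by more than 1.43 times but the mean level of 33 of 221 named genes by more than 1.5 times: 26 without replicate 1 (such as Cldn5, from 93.9 to 53.7 CPM), 5 without replicate 3 (Mrc1, from 18.3 to 9.78 CPM, Pf4, from 1.89 to 0.693 CPM, Nts, Lyz2 and Ddx3y) and 1 each without replicates 4 (Cd3e), 5 (Isl1) and 6 (Ptgds). The named genes include the protein-coding genes of highest CV, and all of those except Mrc1 were highest in replicate 1. The number moved without replicate 1 was thus partly set by that choice. The share of all genes moved in this way was not counted. With 1 library left out, the number of genes at 1 CPM in every library lay between 13153 and 13221. The median CV then lay between 10.1% and 11.4%. Other thresholds gave 14040 genes (0.5 CPM), 14135 (a mean of 1 CPM) and 17262 (1 count in all 5). The median CV was 14.61% from a mean of 1 CPM, 39.28% with no filter and 9.009% by the scaled median absolute deviation. For genes at 1 to 10 CPM counting error alone gives a CV of 10.4%, beside the 29.3% measured.

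A sum in TPM is another quantity than one in CPM and differed by more than 1 SD for 18 lists: projection neuron identity 12003, young neurons 45116, maturation 905.2, intermediate progenitors 516.3, layers 2 to 4 2562, layer 5 217.7, subplate 217.2, areas 1312, hippocampus 520.0, transmitter handling 655.2, glutamate receptors 827.9, GABA response 824.6, acetylcholine and monoamine receptors 130.2, peptides 1191, Cajal-Retzius cells 497.3, microglia 589.6, leukocytes 37.64 and erythroid cells 716.7 TPM. Mean ratios kept their sign, though single libraries did not: by the longest transcript 1 library turned positive for Slc17a7 to Slc17a6, and for Slc12a5 to Slc12a2 3 of 5 libraries were positive by counts or by the longest transcript, against 5 of 5. With counts in place of TPM the mean log2 ratios were 0.12 (Slc12a5 to Slc12a2), 5.05 (Grin2b to Grin2a), 1.75 (Gria2 to Gria1), -1.88 (Bcl11b to Tbr1) and 4.47 (Cux2 to Fezf2). By the longest transcript the first 3 were 0.23, 4.34 and 0.84. Reln moved from rank 474 to 267 with that length, and 68 of 221 named genes moved in rank by more than their spread between libraries. No paired analysis was possible because only 1 group is described and no groups were compared.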
